A study of Mus musculus with 12 samples.

Results

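The genes described here encode the proteasome: every gene whose symbol is Psm followed by a letter from a to g and a number, in brain perivascular macrophages of aged and young adult mice. The rule found 48 genes of the 17358 in the table, and all 48 passed the filter on low counts that left 9550 genes for testing. They comprised 7 alpha ring subunits, 7 constitutive beta ring subunits, 3 immunoproteasome subunits and 2 tissue-specific subunits. The others were 6 ATPases and 14 non-ATPase genes of the regulatory cap, 4 activators, 1 inhibitor and 4 core assembly chaperones. The 14 non-ATPase genes include Psmd5, Psmd9 and Psmd10, which encode assembly chaperones of the cap's base. Perivascular macrophages sit in the space around the brain's vessels, outside the neural tissue proper. The 5 aged libraries came from mice of 18 months and the 7 young libraries from mice of 3 months, all on a C57BL background, with no transgene or treatment named. The labels call the samples biological replicates and do not state the sex, the sort marker or how many animals or cells gave each library, so the p-values measure the spread between libraries.

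The proteasome is a barrel of stacked alpha and beta rings that cuts proteins marked with ubiquitin, and its cap binds, unfolds and feeds them in. The catalytic beta subunits do the cutting, and under interferon signalling they can be replaced by the immunoproteasome subunits Psmb8, Psmb9 and Psmb10, which shift the peptides made towards those that MHC class I molecules present. Macrophages are known to carry both forms, and the Psme1 and Psme2 activator ring, also induced by interferon, can dock on the barrel in place of the cap.

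Library totals ranged from 23214816 to 30628789 counts, and the chemistry (SMART-seq2, full-length cDNA amplified from oligo-dT primers) carries no molecular identifiers, so counts of amplified reads are not independent molecules. All 9 perivascular macrophage markers were detected, with a summed level of 9366 to 14330 normalised CPM (counts scaled to library size with TMM factors) in aged and 8926 to 16940 in young libraries. The 6 microglia markers summed to 3124 to 4952 in aged and 2750 to 5440 in young libraries. Markers of T and NK cells (7 of the listed genes in the table) summed to 0.287 to 5.15 in aged and 5.14 to 68.7 in young libraries. Aged libraries 1, 3 and 4 stood apart from the rest on the first principal component, which held 15.5% of the variance. They also had the largest shares of tested genes under 10 counts, at 24.3%, 23.4% and 25.1%. That share was 12.4% and 11.2% in aged libraries 2 and 5, and 6.0% to 23.0% in young libraries. In these bulk samples, fewer cells of a type and less RNA per cell cannot be told apart.

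Levels of different genes were compared as normalised CPM per kilobase of transcript, averaged over all 12 libraries. The core barrel was the most abundant part: the median gene of the alpha ring stood at 296 and that of the constitutive beta ring at 296, against 160 for the immunoproteasome, 87.4 for the activators, 70.8 for the ATPases, 41.8 for the non-ATPases, 31.4 for the assembly chaperones and 10.1 for the inhibitor Psmf1. Psmb2, a non-catalytic beta subunit, had the highest level of the members at 770 ± 321 (SD, n = 12). It was followed by the alpha subunit Psma3 at 461 ± 136, the activator Psme2 at 423 ± 150 and Psmb8 at 334 ± 115. For Psma3, Psme2 and Psmb8 the intervals of mean ± SD overlapped. Sem1, an accessory factor that the symbol rule leaves out, stood at 799 ± 180.

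The catalytic subunits were not present at equal levels. Psmb5, the chymotrypsin-like constitutive subunit, stood at 93.1 ± 40.3 CPM per kilobase, which was 8.28-fold under Psmb2 and the lowest of the constitutive beta ring. Its interferon-inducible counterpart Psmb8 was above it in all 12 libraries. The other constitutive catalytic subunits, Psmb6 (caspase-like) and Psmb7 (trypsin-like), stood at 313 ± 107 and 227 ± 51.7, and their counterparts Psmb9 and Psmb10 at 101 ± 31.5 and 160 ± 64.6. Psmb9 was below Psmb6 in all 12 libraries.

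Low-level members were found among the cap and the accessory genes. The cap scaffold subunit Psmd2 and the cap subunit Psmd3 stood at 5.5 ± 3.82 and 2.88 ± 3.26 per kilobase, and the activators Psme4 and Psme3 at 4.92 ± 4.11 and 2.51 ± 2.53. Psma8, the testis form of an alpha subunit, had a mean of 2.39 ± 5.06. Across the 47 members with a length, level and transcript length had a Spearman correlation of -0.67, given as a description: these genes share libraries, and length enters the level.

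**Figure D1:**
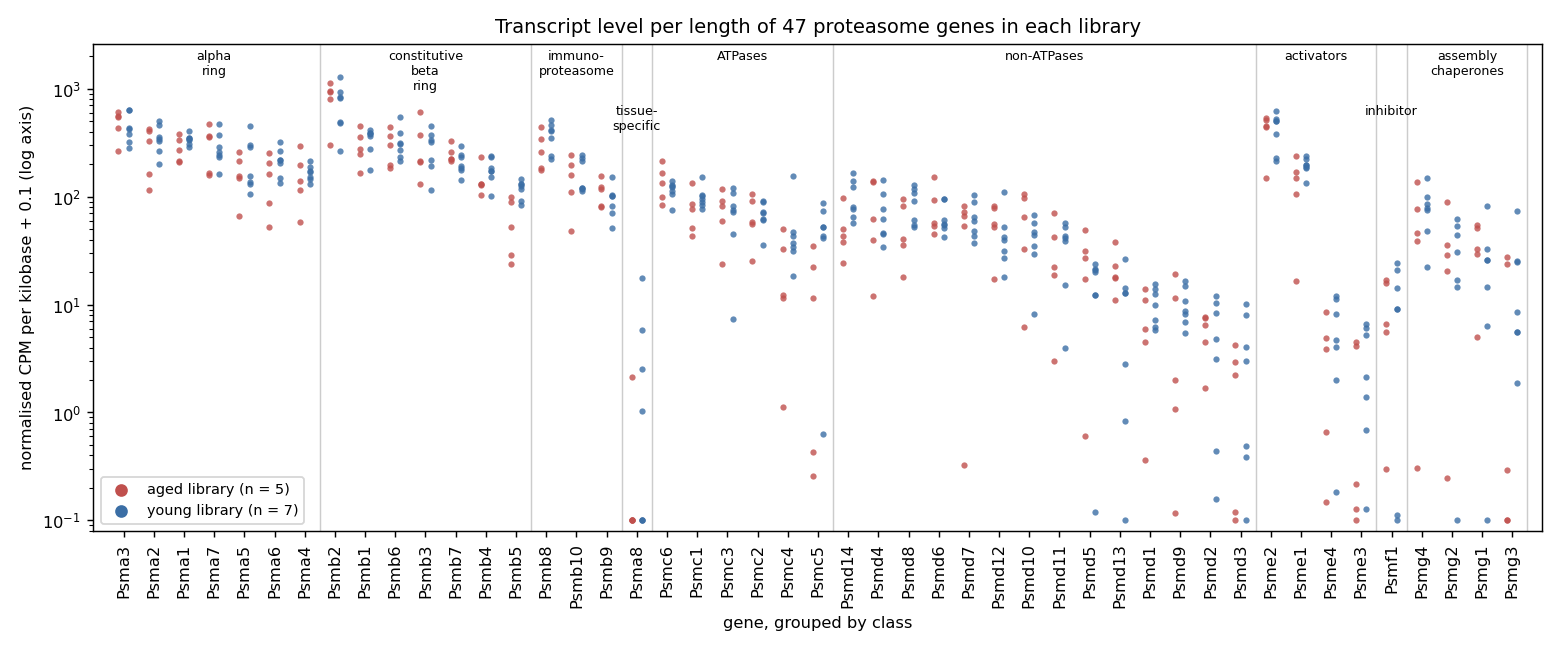
Level per length of the 47 proteasome genes with a known transcript length, in normalised CPM per kilobase with 0.1 added, on a log axis; each point is 1 library (aged, n = 5; young, n = 7) and vertical lines separate the classes. The points of both ages lie over each other in every class, and single libraries near the bottom of the axis are those with few or no counts.

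Several members are neighbours in the genome (GRCm38 coordinates from RefSeq). Psmb9 (chr17:34182030-34187330) and Psmb8 (chr17:34198195-34201454) lie in the MHC region on either side of Tap1 (chr17:34187556-34197225), which encodes a chain of the transporter that carries peptides into the endoplasmic reticulum. The gap between the gene bodies of Psmb9 and Tap1 is 225 bases, and Tap2, the gene of the other chain, follows Psmb8. Psme1 (chr14:55578494-55581527) and Psme2 (chr14:55587440-55591101) also lie together. Psmb5 (chr14:54614120-54617995) is next to Psmb11 (chr14:54625310-54629556), the thymus form of a beta subunit.

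Promoters from 250 bases before to 50 bases after the start (RefSeq, GRCm38.p6) matched 40 of the 48 members by symbol, all but Psma8, Psmb1, Psmb2, Psmb7, Psmc3, Psmd3, Psmd7 and Psmg2. They were searched on both strands for the letters of 5 factor motifs: CCGGAAG (ETS family), CCAAT (NF-Y), TGACNNNGC (the antioxidant response element of the Nfe2l1 and Nfe2l2 factors), the interferon-stimulated response element (2 copies of GAAA separated by 2 bases) and TTCNNNGAA (STAT factors). CCGGAAG was in 14 of the 40 members (35.0%), against 9.93% of 27025 genes with a promoter of the same length. It was in 6 of the 12 non-ATPases and 3 of the 5 ATPases in the promoter set. It was also in 2 of 4 activators, 2 of 3 assembly chaperones and 1 of 7 alpha subunits. The 7 beta and immunoproteasome genes in the promoter set held none. The interferon-stimulated element was in 5 members (12.5% against 3.99% of genes): Psmb3, Psmd4, Psmd9, Psme1 and Psmg4. It was in 0 of the 3 immunoproteasome genes and in 1 of the 4 activators. TGACNNNGC was in 6 members (15% against 14% of genes), CCAAT in 14 (35.0% against 41.1%) and TTCNNNGAA in 3 (7.5% against 9.55%). By genome position, 0 matches overlapped a match of a different motif.

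The windows below were chosen to show CCGGAAG in some of the cap genes beside motifs found at some catalytic and interferon-inducible members. Of these, TGACNNNGC and TTCNNNGAA were about as frequent in the members as in all genes. Each window is 30 bases on the gene's strand, 5′ to 3′, with the motif (or its reverse complement) in capitals. In the ATPase Psmc1 (chr12:100110162-100110191, plus strand) and the cap subunits Psmd12 (chr11:107479499-107479528, plus), Psmd6 (chr14:14120973-14121002, minus) and Psmd13 (chr7:140882376-140882405, plus) the capitals are CCGGAAG or its complement:
Psmc1: ttggtggatgcaCTTCCGGcggtggcgatt
Psmd12: atgagcgggcgaCTTCCGGtgcgagtgacg
Psmd6: ccagagacgcgaCCGGAAGtcagactggcg
Psmd13: gcgcccgcggtgCCGGAAGtgagcgagcac
In the catalytic subunits Psmb5 (chr14:54618024-54618053, minus) and Psmb6 (chr11:70525337-70525366, plus) the capitals are TGACNNNGC:
Psmb5: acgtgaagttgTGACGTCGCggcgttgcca
Psmb6: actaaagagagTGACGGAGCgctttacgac
In Psme1 (chr14:55578493-55578522, plus) and the core assembly chaperone Psmg4 (chr13:34162969-34162998, plus) they are the interferon-stimulated element or its complement, and in Psmb8 (chr17:34198087-34198116, plus) they are TTCNNNGAA:
Psme1: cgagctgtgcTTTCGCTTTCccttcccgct
Psmg4: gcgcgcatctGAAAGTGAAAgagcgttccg
Psmb8: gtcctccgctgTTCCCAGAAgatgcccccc
These matches are descriptions of letters in a window and do not show that a factor binds. Members with CCGGAAG had a median level of 42.2 CPM per kilobase and those without it 160. The motif was found mostly in cap genes, whose median level was below that of the barrel.

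The age comparison asked whether proteasome transcripts differed between aged and young adult macrophages. With edgeR's quasi-likelihood test and a Benjamini-Hochberg adjusted p under 0.05 over all tested genes, 0 of the 48 members were called, against 1 of 9550 genes (0.0105% called). The lowest adjusted p of a member was 0.592 (edgeR). In simulated data this test called 0 of 47 genes, drawn from all tested genes, with a true log2 change of 1. All tested genes had a median standard error of 1.12 and the members 0.42. The simulation therefore does not give the power for the members. Without such a figure, the lack of calls does not show that levels were equal. At an unadjusted p under 0.05, 2 members passed, Psmb5 and Psmd14, both lower in aged libraries (2 of 48 lower, against 2.12% of all genes, and 0 of 48 higher, against 3.85%). In either direction 5.97% of all genes passed, so the members' 4.17% was close to the background. In no member did the aged and young libraries fail to overlap, against 0.597% of all genes. DESeq2 called 0 of the 47 members to which it gave an adjusted p, against 121 of 9316 genes (1.3% called).

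The log2 fold change, aged over young, was negative in 31 and positive in 17 of the 48 members, with a median of -0.20; over all tested genes the median was -0.01 and 50.5% were negative. In 33 members the fold change was within 1 standard error (SE) of 0. The median absolute fold change of the members was 0.32 against 0.57 for all genes, and their median SE was 0.42 against 1.12. Without aged library 5 the members' median was -0.05, with 26 negative, beside an all-gene median of -0.06. Without aged libraries 1, 3 and 4 it was -0.30, with 34 negative, beside an all-gene median of -0.09. Scaling by library totals moved the median of all genes to -0.13 and that of the members to -0.30.

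The members' summed counts made up 0.608 ± 0.0971% of all counts in aged libraries (0.497% to 0.719%, n = 5) and 0.713 ± 0.0875% in young libraries (0.566% to 0.830%, n = 7). The ranges overlapped.

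**Figure D2:**
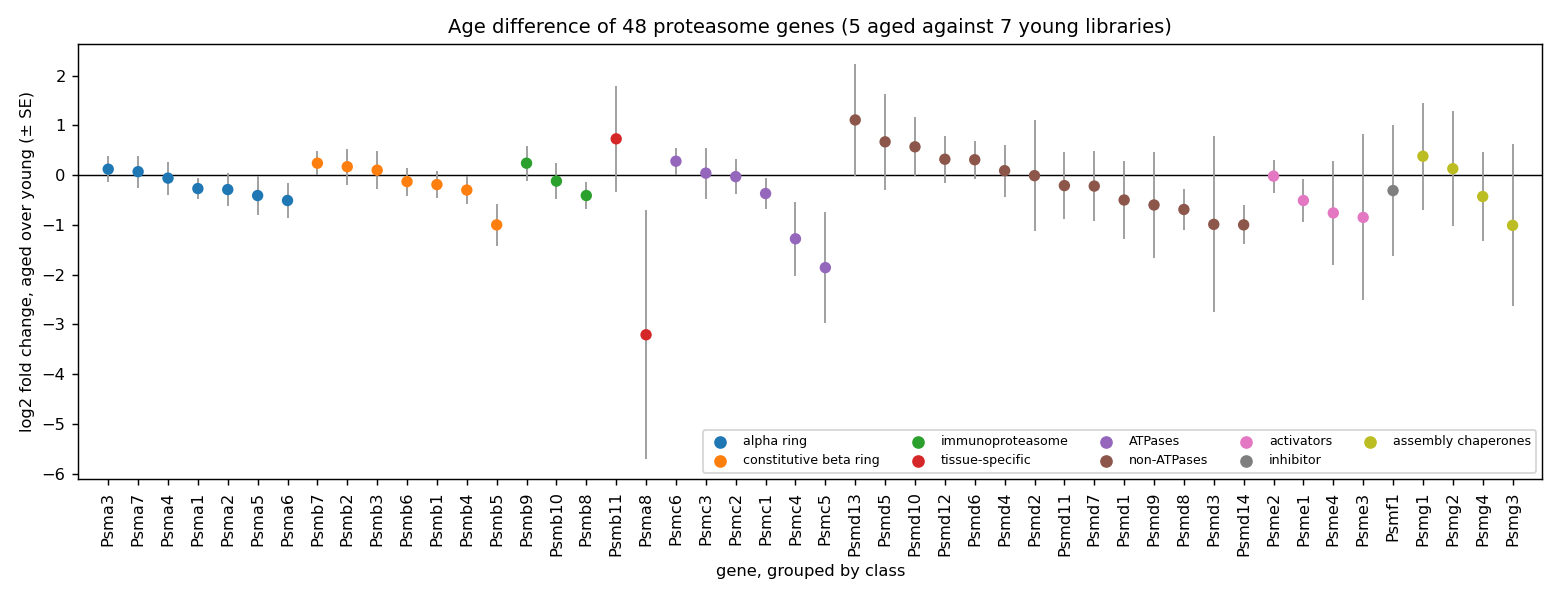
Log2 fold change, aged over young (edgeR), of the 48 proteasome genes by class, with bars of 1 standard error; positive values are higher in aged libraries. Most points lie within 1 SE of 0, and Psmb5 and Psmd14, both at -1.0, are the only members with an unadjusted p under 0.05.

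In the alpha ring, which forms the gate of the barrel, 5 of 7 fold changes were negative (median -0.27) and no member was called. Psma3 was at 771, 601, 845, 762 and 363 normalised CPM in the aged libraries and ran from 389 through a median of 580 to 887 in the young ones. Aged library 5 alone fell under the young range, and the log2 fold change was 0.12 ± 0.26 (SE). Its estimated counts were not whole numbers in 11 libraries, so reads are shared with another locus and its level is uncertain. Psma6 had the lowest fold change of the ring, -0.51 ± 0.36, with 48.3, 234, 189, 80.7 and 151 CPM in the aged libraries and 124 to 299 (median 202) in the young ones. Aged libraries 1 and 4 were below every young library. Its fold change was -0.31 without aged library 1, -0.77 without aged library 2 and -0.06 without aged libraries 1, 3 and 4.

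In the constitutive beta ring 4 of 7 fold changes were negative (median -0.13). Psmb5 was at 41.9, 72.0, 19.1, 22.8 and 79.6 normalised CPM in the aged libraries, against 66.5 to 115.5 (median 100.7) in the young ones. Aged libraries 1, 3 and 4 were below the lowest young library, while aged libraries 2 and 5 lay within the young range. Libraries 1, 3 and 4 are those apart on the first principal component, with the largest shares of tested genes under 10 counts. The means were 47.1 ± 27.8 (SD, n = 5) and 94.2 ± 17.9 (n = 7), a log2 fold change of -1.0 ± 0.42 with an unadjusted p of 0.028 and an adjusted p of 0.674 (edgeR). Without those 3 libraries the fold change was -0.32.

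The other members of the beta ring showed smaller differences. Psmb6 averaged 287 ± 106 normalised CPM at the older age and 313 ± 109 at the younger (log2 fold change -0.13 ± 0.28), and Psmb7 averaged 219 ± 42.4 and 185 ± 44.9 (0.24 ± 0.24). Psmb2, the most abundant member, was at 736, 631, 721, 884 and 234 in the aged libraries and 205 to 1002 (median 640) in the young ones. Its fold change of 0.17 ± 0.36 turned to -0.38 without aged libraries 1, 3 and 4.

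No immunoproteasome subunit was called. Psmb8 was at 395, 510, 205, 214 and 297 normalised CPM in the aged libraries and 258 to 590 (median 465.7) in the young ones. Aged libraries 3 and 4 were below the young range, and the log2 fold change was -0.41 ± 0.28 (unadjusted p 0.164, adjusted p 0.999, edgeR), or -0.09 without aged libraries 1, 3 and 4. Psmb9 was at 122, 92.7, 63.5, 95.7 and 62.2 against 39.7 to 118 (median 79.3), with a fold change of 0.24 ± 0.35. Aged library 1 was the single one above the young range. Psmb10 was at 191, 240, 296, 135 and 58.0 against 136 to 297 (median 145), with a fold change of -0.12 ± 0.36. Aged library 5, at 58.0, was the lowest of all 12, and without it the fold change was 0.09. Lymphocytes also carry the immunoproteasome: the T and NK cell marker sums reached 5.15 in aged and 68.7 in young libraries. The highest young sum was that of young library 7, where Nkg7 was at 29.7 and Gzmb at 27.9. The B cell marker sums reached 29.7 in aged and 89.9 in young libraries, as did Cd79b alone. The part of lymphocytes in the immunoproteasome values was not tested.

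The balance of each immunoproteasome subunit against the constitutive subunit it replaces was taken per library as the log2 ratio of levels per kilobase, with no test. For Psmb8 over Psmb5 the ratio was 2.71, 2.30, 2.90, 2.70 and 1.37 in the aged libraries, with a mean of 2.40 ± 0.61. In the young libraries it ran from 0.86 to 2.28, with a mean of 1.63 ± 0.46. Aged libraries 1 to 4 were above the highest young one and aged library 5 was within the young range. The difference of means was 0.77, with the mean of both genes below that of the young libraries and Psmb5 the further below. Without aged libraries 1, 3 and 4 the difference was 0.20.

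In the other pairs fewer aged libraries lay above the young range. The log2 ratio of Psmb9 over Psmb6 was -1.38 ± 0.37 in aged and -1.79 ± 0.73 in young libraries. The young libraries lay in 2 sets, with libraries 3, 4 and 5 between -1.19 and -0.84 and libraries 1, 2, 6 and 7 between -2.60 and -2.14, and the aged libraries lay from -1.91 to -0.94. The ratio of Psmb10 over Psmb7 was -0.90 ± 1.07 in aged and -0.40 ± 0.28 in young libraries. Aged libraries 4 and 5, at -1.57 and -2.43, were below every young library, and aged library 3, at 0.14, was above every one. All 3 pairs overlapped between ages.

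**Figure D3:**
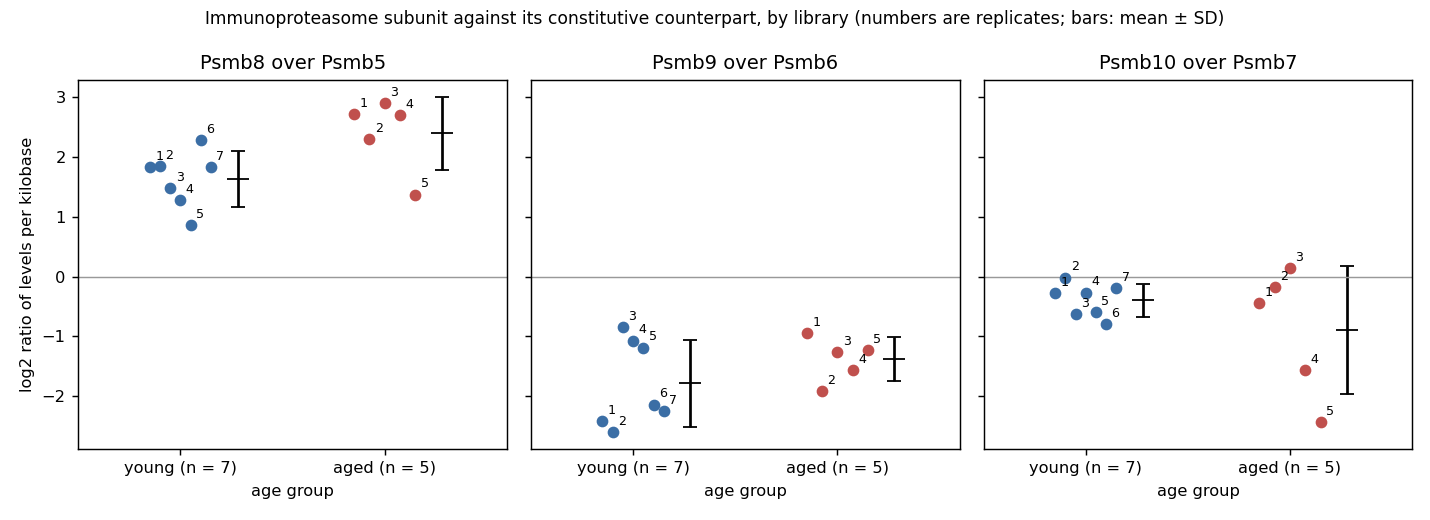
Log2 ratio of the level per kilobase of each immunoproteasome subunit over its constitutive counterpart, 1 point per library with its replicate number, and bars of mean ± SD (young, n = 7; aged, n = 5). Psmb8 exceeds Psmb5 in every library, Psmb9 is below Psmb6 in every library, and Psmb10 over Psmb7 spreads most among the aged libraries, from -2.43 to 0.14.

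Among the cap ATPases, which unfold the substrate, 4 of 6 fold changes were negative (median -0.20). Psmc6, the most abundant of them, averaged 209 ± 80.0 normalised CPM at the older age and 173 ± 31.1 at the younger (log2 fold change 0.28 ± 0.27), and its fold change was -0.34 without aged libraries 1, 3 and 4. Psmc5 had the lowest fold change of the ATPases, -1.86 ± 1.11 (unadjusted p 0.113, adjusted p 0.999, edgeR). It was at 42.0, 13.7, 0.400, 0.192 and 26.9 in the aged libraries, and at 0.643 in young library 2 against 49.6 to 106 in the other young ones. The low values of aged libraries 3 and 4 rested on 8 and 4 counts. So 6 of 7 young libraries were above every aged one, and the remaining young library was among the lowest.

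Among the non-ATPase genes of the cap 8 of 14 fold changes were negative (median -0.11). Psmd14, the enzyme that removes ubiquitin chains as the substrate enters, was the most abundant of them. It was at 63.1, 73.4, 142.5, 56.3 and 36.0 normalised CPM in the aged libraries, against 84.1 to 245.3 (median 117) in the young ones. Aged libraries 1, 2, 4 and 5 were below every young library and aged library 3 was within their range. The means were 74.3 ± 40.5 and 149 ± 61.8, a log2 fold change of -1.0 ± 0.39 with an unadjusted p of 0.0193 and an adjusted p of 0.592 (edgeR). Unlike Psmb5, its fold change was larger in size without aged libraries 1, 3 and 4, at -1.44.

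Psmd13, a subunit of the cap's lid, had the highest fold change of the class, 1.11 ± 1.13. It was at 34.0, 26.1, 56.5, 16.5 and 27.1 normalised CPM in the aged libraries and ran from 0 to 39.5 (median 19.05) in the young ones, with 0 counts in young library 1. The difference was no larger than its SE.

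**Figure D4:**
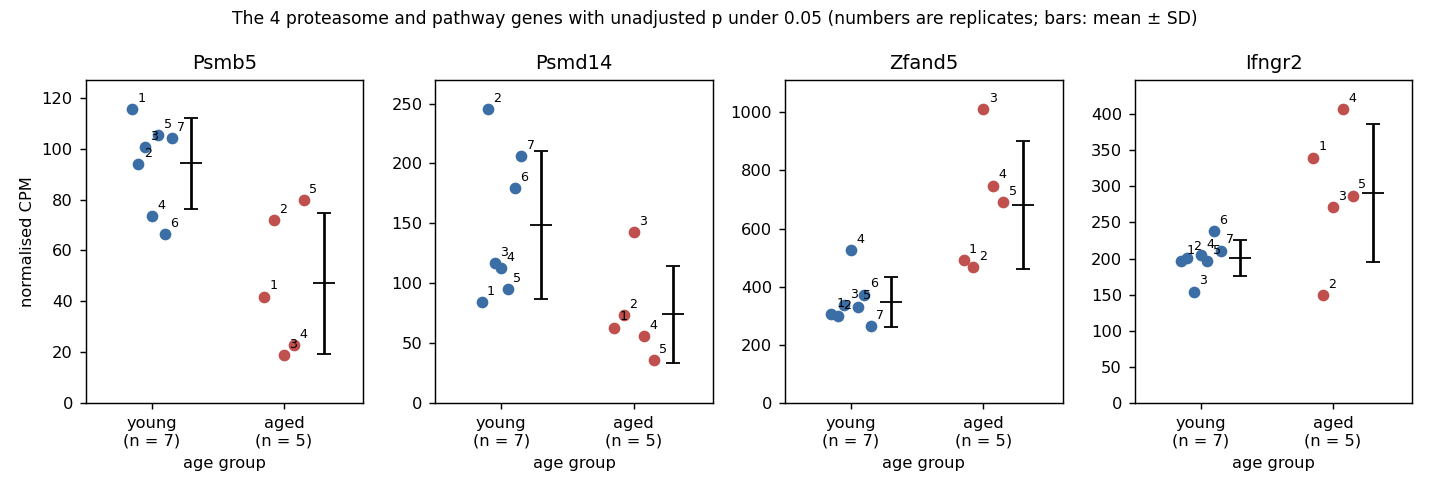
Normalised CPM of Psmb5, Psmd14, Zfand5 and Ifngr2, the 4 proteasome and pathway genes with an unadjusted p under 0.05, 1 point per library with its replicate number, and bars of mean ± SD (young, n = 7; aged, n = 5). Psmb5 is lowest in aged libraries 1, 3 and 4, Psmd14 is within the young range in aged library 3 alone, and the ages overlap in all 4 genes.

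All 4 activators had negative fold changes (median -0.64), and none was called; with 4 genes, whose unadjusted p-values ran from 0.245 to 0.942 (edgeR), the shared sign is a description. Psme1, a chain of the interferon-inducible ring, was at 217, 135, 95.4, 15.1 and 154 normalised CPM in the aged libraries and 122 to 217 (median 177) in the young ones. Aged libraries 3 and 4 were below the young range, and the log2 fold change was -0.51 ± 0.43. Psme2, its partner, was at 374, 427, 444, 363 and 124 against 178 to 516 (median 417), with a fold change of -0.02 ± 0.33. It is uncertain, since its estimated counts were not whole numbers in 11 libraries and its near-copy Psme2b held up to 1281 counts in a library. Psme4, which caps the barrel in the nucleus, averaged 22.4 ± 21.7 and 37.9 ± 28.9, and Psme3, the nuclear activator, 4.20 ± 5.60 and 7.57 ± 6.68. Their fold changes of -0.76 ± 1.05 and -0.85 ± 1.67 were smaller than their SE. Psme3 had 0, 6 and 2 counts in aged libraries 1, 4 and 5, and 2 in young library 6.

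The remaining classes were at low levels and varied widely between libraries. The inhibitor Psmf1 averaged 27.1 ± 21.5 normalised CPM at the older age and 33.5 ± 28.5 at the younger (log2 fold change -0.31 ± 1.31), with 1 and 0 counts in young libraries 1 and 2. The core assembly chaperones, which act in pairs to build the alpha ring, had 2 positive and 2 negative fold changes. Psmg4 averaged 27.4 ± 23.3 and 36.9 ± 18.7 (-0.43 ± 0.89). Psmg1 had the highest fold change of the chaperones, 0.38 ± 1.08, and Psmg3 the lowest, -1.01 ± 1.63. Each chaperone had under 10 counts in at least 1 library.

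The 2 tissue-specific subunits were near the floor. Psma8 had 0 counts in 4 of 5 aged and 3 of 7 young libraries, 3.10 normalised CPM in aged library 2 and up to 26.6 in young library 2. Psmb11 ranged from 0.304 to 3.02 CPM in aged and 0.526 to 1.21 in young libraries, with counts that were not whole numbers in any library. Their fitted log2 fold changes of -3.21 ± 2.50 and 0.73 ± 1.06 rest on these counts.

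In some members, single libraries held few or no counts of a transcript that other libraries held at far higher counts. Of the members' 240 values in aged libraries 20 were under 10 counts (8.33%), and of the 336 in young libraries 12 were (3.57%). Over all tested genes the mean share under 10 counts was 19.3% in aged and 13.6% in young libraries, with ranges that overlapped, so the same order stood in the whole table. These values belonged to 16 of the 48 members (33.3%), against 56.3% of all tested genes with at least 1 such library. No alpha ring, constitutive beta ring or immunoproteasome gene had one, and 6 non-ATPases, 1 ATPase, 2 activators, the inhibitor, 4 chaperones and both tissue-specific genes did. Between libraries of one age, the coefficient of variation was larger in aged than in young for 75.0% of members, against 64.2% of all tested genes, with medians of 55.4% in aged and 39.7% in young libraries for the members and 86.6% and 72.8% for all genes.

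**Figure D5:**
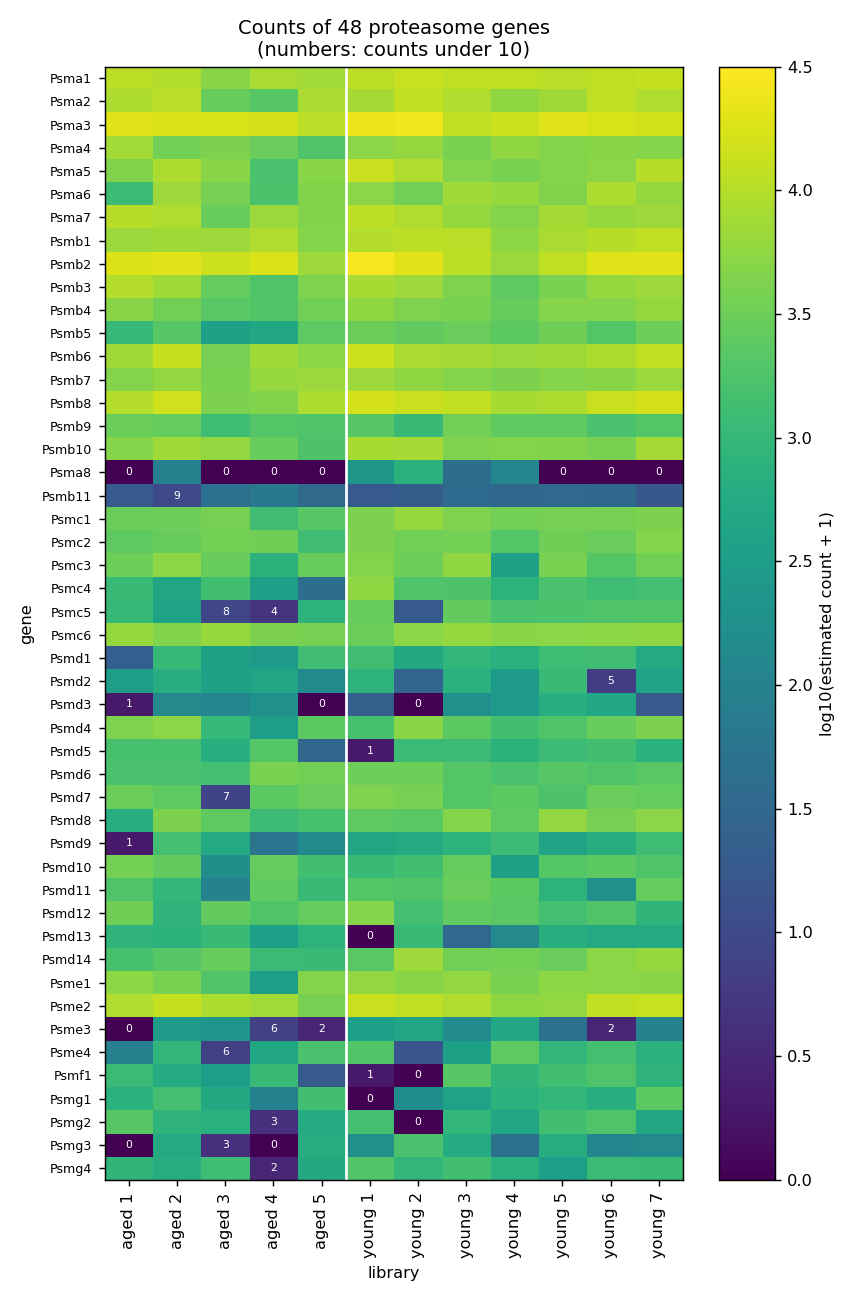
Estimated counts of the 48 proteasome genes in the 12 libraries, coloured by log10(count + 1), with each count under 10 written in its cell and a white line between aged and young libraries. The written counts lie in the tissue-specific, cap, activator, inhibitor and chaperone genes, 20 of them in aged and 12 in young libraries.

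Other genes of the pathway were read from 4 lists, and none of their members was called. Of 12 accessory factors of the proteasome 11 were tested, with 4 positive and 7 negative fold changes (median -0.14). Zfand5, which binds ubiquitin conjugates and activates the proteasome, was at 491, 467, 1010, 748 and 690 normalised CPM in the aged libraries and 265 to 527 (median 332) in the young ones. Aged libraries 3, 4 and 5 were above every young library and libraries 1 and 2 lay under the highest young one. The means were 681 ± 221 and 349 ± 85.7, a log2 fold change of 0.97 ± 0.23 with an unadjusted p of 6.7e-04 and an adjusted p of 0.197 (edgeR). It passed the threshold with DESeq2 (adjusted p 0.0162) and, with edgeR, without aged library 2 (adjusted p 0.0376). These were 2 of 21 alternative settings, and it passed in no other. Both also called more genes over the whole table: 121 of 9316 (1.3%) with DESeq2, and 61 higher and 14 lower of 9930 without aged library 2. Akirin2, which brings proteasomes into the nucleus, had the highest fold change of the list at 1.14 ± 0.67, and the ubiquitin receptor Adrm1 the lowest at -0.73 ± 0.86.

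Of 18 genes of ubiquitin, shuttle factors and unfolding, 17 were tested, with 11 positive and 6 negative fold changes (median 0.07). Ufd1, a partner of the unfolding enzyme Vcp, had the lowest, -1.01 ± 0.58, with 4 of 5 aged libraries below every young one. Ubqln4, a shuttle factor, had the highest, 2.37 ± 2.0, at means of 12.9 ± 15 and 2.50 ± 2.72 normalised CPM.

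Of 16 regulators of proteasome genes 15 were tested, with 7 positive and 8 negative fold changes (median -0.08). Ifngr2, a chain of the interferon gamma receptor, averaged 291 ± 95.1 normalised CPM at the older age and 200 ± 24.8 at the younger. Aged libraries 1, 3, 4 and 5 were above every young one and aged library 2 was below every one. The log2 fold change was 0.54 ± 0.24 (unadjusted p 0.0387, adjusted p 0.774, edgeR), and 0.11 without aged libraries 1, 3 and 4. Ifnar1, a chain of the type I interferon receptor, had the highest fold change of the list, 0.61 ± 0.38, and Irf9, which relays that receptor's signal and lies near Psme2, the lowest, -0.88 ± 0.95.

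Of the 11 genes listed for MHC class I and its peptide supply, 8 had positive and 3 negative fold changes (median 0.21). Tap2, beside Psmb8, had the highest at 0.79 ± 1.66 and low levels of 9.82 ± 8.92 and 5.68 ± 7.56 normalised CPM. The MHC class I heavy chain H2-D1 had the lowest at -0.27 ± 0.27, with 757 ± 372 and 913 ± 169.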

How the data were processed

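RNA sequencing libraries of brain perivascular macrophages (5 aged, 7 young) were analysed from 1 deposited table. It holds estimated counts per gene; the submitters' processing notes list RSEM 1.2.12, HISAT2 2.0.4, DESeq2 1.4.5, Bowtie2 2.2.5 and the build GRCm38, with no role or order. Between 88.2% and 90.6% of the deposited estimated counts per library were whole, and all were rounded. Normalised values without a named unit were read as the authors' deposited FPKM and used for transcript lengths and for alternatives.

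Tests used edgeR 4.0.16 (quasi-likelihood, robust, default estimation mode, TMM, filterByExpr) in R 4.3.3 with Benjamini-Hochberg adjustment over 9550 genes. Levels are CPM scaled with TMM factors, given with their SD. DESeq2 1.42.0, limma 3.58.1, other scalings and left-out libraries were alternatives. The script was tested on simulated counts of 12 libraries with the spread of these data. The edgeR test called 0 of 47 genes changed by 1 log2 unit, 6 of 47 at 2, 13 of 47 at 3 and 12 of 45 at 4. It also called 3 unchanged genes. No 2 libraries agreed within sampling noise. RefSeq (GRCm38.p6) matched 17244 gene identifiers and gave positions.

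Members and lists were chosen with earlier results of these data known; so were the motifs. Named were the catalytic and immunoproteasome pairs, the activators, in each other class the most abundant gene and the extreme fold changes, and genes with an unadjusted p under 0.05. In the pathway lists the extreme fold changes and genes with an unadjusted p under 0.05 were named. The kit does not mark strand, so antisense reads cannot be told apart.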

Additional observations from a re-analysis of the deposited data

Results flagged for a closer look

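Single libraries stood apart from the rest of their age group in 9 of 92 groups examined. About 4.6 would be flagged if values were normally distributed. That was not checked for these levels, so the count is a description. In the proteasome genes, in normalised CPM, these were Psma8 in aged library 2 at 3.1 and in young library 2 at 26.6, Psme2 in aged library 5 at 124, Psmg1 in young library 7 at 75 and Psmg3 in young library 2 at 57.7. The tissue-specific class, whose level per kilobase is that of Psma8 alone, stood apart in the same 2 libraries, at 2.04 and 17.5. Among the pathway genes, Ufd1 in aged library 1 was at 50.8 and Zfand5 in young library 4 was at 527. Each is the highest value of its group except Psme2, which is the lowest.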

How the results depend on the processing

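No proteasome gene was called under any setting run. Values of the 16 members with a library under 10 counts have little precision there. Over the whole table, 36 genes were called higher and 2 lower with edgeR's legacy=FALSE mode, 64 and 57 with DESeq2, 3 higher with library totals (a scaling chosen after seeing the data), 13 higher with no filter, 3 and 3 with limma on log2(FPKM + 1), and 0 higher on log2(FPKM + 0.1) or without aged libraries 1, 3 and 4. Leaving out each library in turn gave 0 to 61 higher and 0 to 14 lower, the most without aged library 2. The replicate numbers did not pair the libraries (correlations of same-numbered libraries from -0.025 to 0.098; 2 of 5 aged libraries correlated best with their own number), and with the replicate block 1 gene was called higher and 0 lower. The all-gene median log2 fold change was -0.17 and -0.25 with the 2 FPKM settings and -0.16 with the block, where the members' was -0.38, -0.39 and -0.23. The non-ATPase median was -0.44 and -0.48 with the FPKM settings. The tissue-specific median was -0.48 on log2(FPKM + 1), -3.36 with the block and -4.66 to 0.82 leaving out each library. The Psmb8 over Psmb5 difference was 0.20 without aged libraries 1, 3 and 4, an alternative also chosen after seeing the data.

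Some fold changes that were within 1 or 2 SE of 0 turned sign. Without aged libraries 1, 3 and 4 they were -0.35 for Psma3, -0.28 for Psmb11, -0.38 for Psmb2, -0.34 for Psmc6, 0.14 for Psme4, 0.30 for Psmg3, 0.27 for H2-D1, 0.08 for Irf9 and -9.23 for Ubqln4, a fitted value near the floor. Psma3 was at -0.01 with library totals and -0.04 with both FPKM settings. With the replicate block, Psme2 was at 0.10, Psmf1 at 1.33 and Tap2 at -0.97, and Psmf1 was at 0.30 on log2(FPKM + 0.1). Leaving out each library, the ranges were -0.37 to 0.09 for Psmb10 (the highest without aged library 5), -0.31 to 0.02 for Psmb6 (young 1), -0.14 to 0.17 for Psme2 (aged 5) and -0.68 to 0 for Psmf1 (young 3). The causes were not tested.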
